A study of Homo sapiens with 6 samples.

Results

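Enzymes that carry choline carbon from choline through betaine, dimethylglycine and sarcosine to glycine, or that share homocysteine with this route, were followed in RNA of a retinal pigment epithelium (RPE) cell line with and without a knockout of POLDIP2. The 10 genes were SARDH, DMGDH, BHMT, BHMT2, CHDH, ALDH7A1, GNMT, PIPOX, MTR and CBS, out of 37902 genes in the deposited table, and they were found by symbol. They were chosen with the values of these same libraries in view, so differences of the 10 genes between the lines are given as descriptions, with no p-value. ARPE-19 is an established human line derived from RPE, and WT is the parental line without transduction. For POLDIP2 KO, the parental cells received SpCas9 by lentivirus together with a guide RNA to the POLDIP2 coding region, and transduced cells were selected with puromycin. The line was expanded as a transduced population, with no cloning of single cells described. Both lines were under regular maintenance and were taken at day 3, with 3 biological replicates of each, so there were 6 libraries in 2 groups. All replicates of a line come from the same line, so the spread covers cultures and not independent knockouts. Viral transduction, Cas9, puromycin selection and the loss of POLDIP2 were present together and cannot be told apart.

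Values are normalised counts, which are read counts divided by a size factor for each library. Depth in recovered reads was 39657489, 36517259 and 35515478 for the WT libraries in the order of their replicate numbers, which is kept below, and 31532797, 45795509 and 38293289 for POLDIP2 KO. At this depth 3 reads, taken as the floor, equal 2.44 to 3.69 normalised counts. The targeted gene POLDIP2 stood at 3919, 4827 and 4798 in WT and at 1063, 1248 and 1143 in POLDIP2 KO, a ratio of 0.255, so the libraries followed their labels. Both libraries numbered 1 stood apart from the other 4. The first principal component held 30.9% of the variance, with scores of -57.5 for WT replicate 1 and -48.2 for POLDIP2 KO replicate 1, against 4.77 to 39.8 for the rest. The result for SARDH and BHMT2 is therefore also given by replicate number.

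The labelled cell type was compared with RPE markers. Of 13 marker genes, RPE65, RGR and TYR had 3 reads or fewer in every library, and RPE65, the visual cycle isomerase, had 0 in all of them. KRT8, the most abundant of the 13, MITF and OTX2 were expressed in every library, and the summed level of the 13 genes was 82439, 76196 and 71772 in WT and 89484, 67422 and 76877 in POLDIP2 KO. Most of this sum is KRT8 and KRT18, keratins of many epithelia. The other 11 markers summed to 5368, 5166 and 4877 in WT and 5241, 4192 and 5870 in POLDIP2 KO. LRAT, the retinol esterifying enzyme, had 106, 75.3 and 29.2 in WT and 22.1, 24.4 and 28.8 in POLDIP2 KO. It was the marker of the 13 without overlap, but only narrowly, as replicate 3 had 28 reads in WT and 29 in POLDIP2 KO. Of the 14684 genes with a mean of at least 10, 5.44% were lower in POLDIP2 KO without overlap. RLBP1 ran from 30.2 to 68.2 in WT and from 19.7 to 37.7 in POLDIP2 KO, PMEL from 74.6 to 103 and from 36.7 to 85.5, and DCT had at most 4 reads in any library. BEST1 and TYRP1 went the other way, with the higher mean in POLDIP2 KO and with overlap. BEST1 had 61.4, 562 and 377 in WT and 239, 419 and 669 in POLDIP2 KO. The means of TYRP1 were 12.2 in WT and 15.0 in POLDIP2 KO. The liver is the main site of the choline route, and of 7 liver markers 5 had 3 reads or fewer in every library, among them ALB, APOA1 and APOA2. CPS1, the most abundant, had 893 to 1309 normalised counts over the 6 libraries, and SERPINA1 had 111 to 191.

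Choline is oxidised to betaine in mitochondria by choline dehydrogenase (CHDH) and an aldehyde dehydrogenase, a step ALDH7A1 can carry out. Betaine is an osmolyte and a methyl donor: BHMT moves a methyl group from betaine to homocysteine and leaves dimethylglycine, and its close relative BHMT2 prefers S-methylmethionine as the donor. The flavoproteins DMGDH and SARDH then take the remaining methyl groups off in mitochondria and pass them to folate, giving sarcosine and finally glycine. PIPOX, a peroxisomal oxidase, can also use sarcosine, and GNMT makes sarcosine from glycine. Homocysteine not used by BHMT is methylated by the cobalamin enzyme MTR or sent to cysteine by CBS.

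SARDH and BHMT2 were the genes of the 10 that differed most between the lines, and in opposite directions. SARDH was 14.7-fold higher in POLDIP2 KO, and BHMT2 was 4.10-fold lower. In bulk RNA, a difference in how many cells express a gene and a difference in RNA per cell cannot be told apart. Their promoter windows are shown because the results turn on these genes and because BHMT2 shares its promoter region with DMGDH. Each window is the RefSeq sequence of GRCh38.p14 from 250 bases before to 50 bases after an annotated start, written 5′ to 3′ on the gene's own strand, and capitals mark CG pairs.

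SARDH, window 1, chr9:133739906-133740205, minus strand: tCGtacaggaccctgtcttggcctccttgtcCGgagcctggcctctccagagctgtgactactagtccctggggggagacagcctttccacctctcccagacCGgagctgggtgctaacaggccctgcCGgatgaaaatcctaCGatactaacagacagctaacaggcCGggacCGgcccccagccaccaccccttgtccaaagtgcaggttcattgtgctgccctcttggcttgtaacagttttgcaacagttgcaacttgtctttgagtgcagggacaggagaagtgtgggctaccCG

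SARDH, window 2, chr9:133738303-133738602, minus strand: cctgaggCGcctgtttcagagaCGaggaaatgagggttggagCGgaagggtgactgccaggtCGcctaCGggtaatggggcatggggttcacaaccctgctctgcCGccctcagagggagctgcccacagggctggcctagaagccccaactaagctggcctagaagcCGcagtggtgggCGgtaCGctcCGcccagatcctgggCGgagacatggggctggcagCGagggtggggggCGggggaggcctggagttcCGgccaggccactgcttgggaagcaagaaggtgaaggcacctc

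BHMT2, chr5:79069517-79069816, plus strand: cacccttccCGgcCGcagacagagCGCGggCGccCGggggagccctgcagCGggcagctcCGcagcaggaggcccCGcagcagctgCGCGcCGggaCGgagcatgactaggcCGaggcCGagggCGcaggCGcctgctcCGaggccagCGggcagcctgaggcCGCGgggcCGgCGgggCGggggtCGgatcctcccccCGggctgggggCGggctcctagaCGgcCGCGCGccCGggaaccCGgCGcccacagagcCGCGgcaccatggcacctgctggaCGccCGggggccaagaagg

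All 10 genes matched an entry, with 14 windows. The SARDH starts lie 1603 bases apart. The outer window holds 8 CG pairs and the inner one 14, against a median of 14 over all 35116 promoters. The BHMT2 window holds 38 CG pairs, and 90.1% of promoters hold fewer. DMGDH lies on the opposite strand and starts 93 bases from BHMT2, so the genes are transcribed away from each other. In RefSeq the first base of DMGDH is 79069674 of chromosome 5, while GENCODE 44, whose coordinates are used for the genes below, extends DMGDH to 79236038 across BHMT2 and BHMT. The DMGDH window, with 36 CG pairs, shares 192 bases with the window of BHMT2, and the first base of DMGDH is position 158 of the BHMT2 sequence printed above, while BHMT2 starts at position 251. Short motifs were searched on both strands. The TATA box letters TATAAA are held by 11.5% of all promoters, the CCAAT box by 34.6%, and the GC box letters GGGCGG by 45.0%. The outer SARDH window had none of the 3 motifs, while the inner SARDH window and those of BHMT2 and DMGDH had the GC box alone. BHMT starts 21.7 kb beyond the end of BHMT2, and its window had the TATA box and the GC box and 21 CG pairs. A motif match is a description of these letters and not a binding site, and the counts are per gene, so they do not say which SARDH start was used.

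The enzymes of the first oxidation steps were expressed in both lines, with differences within the spread. CHDH (ENSG00000016391, chr3:53812335-53846419 of GRCh38) had normalised counts of 1051, 717 and 669 in WT and of 741, 872 and 663 in POLDIP2 KO. The ranges overlapped, and the log2 fold change was -0.08 ± 0.21 (SE, n = 3 per line). ALDH7A1 (ENSG00000164904, chr5:126531200-126595362), which also breaks down lysine, had 1990, 2327 and 2436 in WT and 2006, 2461 and 2626 in POLDIP2 KO. It was higher in POLDIP2 KO in 3 of 3 pairs of equal replicate number, with ratios of 1.01, 1.06 and 1.08, which is within the spread of either line.

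At the methyl transfer to homocysteine, the betaine enzyme BHMT was close to absent and BHMT2 was not. BHMT (ENSG00000145692, chr5:79111809-79132288) had 1 read in WT replicate 3 and 0 reads in the other 5 libraries, so no fold change is given. BHMT2 (ENSG00000132840, chr5:79069767-79090069) had normalised counts of 513, 637 and 552 in WT and of 180, 110 and 126 in POLDIP2 KO. The lowest WT library was above the highest POLDIP2 KO library. The means were 567 ± 63.5 and 139 ± 36.5 (SD, n = 3), and the log2 fold change was -2.05 ± 0.22 (SE). By replicate number the ratio of POLDIP2 KO to WT was 0.350, 0.172 and 0.228. BHMT2 and BHMT share 148 of the 3783 different 31-base words in the BHMT2 transcripts, so most of BHMT2 can be told from its paralogue.

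Of the demethylating enzymes, SARDH was higher in POLDIP2 KO and DMGDH had the lower mean there. SARDH (ENSG00000123453, chr9:133663560-133739955), the sarcosine dehydrogenase, had normalised counts of 20.8, 15.1 and 19.8 in WT, from 22, 15 and 19 reads. In POLDIP2 KO it had 346, 186 and 288, from 281, 229 and 290 reads. All 3 POLDIP2 KO libraries were above all WT libraries, the means were 18.6 ± 3.07 and 273 ± 80.6 (SD, n = 3), and the log2 fold change was 3.78 ± 0.32 (SE). By replicate number the ratio was 16.6, 12.4 and 14.5, so the libraries numbered 1, which stood apart, gave a ratio like those of the others.

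DMGDH (ENSG00000132837, chr5:78997564-79236038), which acts just before SARDH, was low in both lines. It had 47.2, 52.2 and 72.0 normalised counts in WT and 16.0, 17.1 and 49.6 in POLDIP2 KO. It was lower in POLDIP2 KO in 3 of 3 pairs, with ratios of 0.339, 0.328 and 0.689, but POLDIP2 KO replicate 3 lay between the WT libraries and the ranges overlapped. The log2 fold change was -1.20 ± 0.50 (SE). DMGDH shares no 31-base word with SARDH. Its annotated exons do not overlap those of BHMT2, and they overlap those of BHMT by 239 bases on the opposite strand.

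The ratio of the paired dehydrogenases shows the contrast within each library, where the size factor cancels. The SARDH count was 0.440, 0.288 and 0.275 times the DMGDH count in WT replicates 1, 2 and 3, and 21.6, 10.9 and 5.80 times in POLDIP2 KO. DMGDH was thus the more abundant of the 2 transcripts by count in all WT libraries, and SARDH in all POLDIP2 KO libraries. For the divergent genes BHMT2 and DMGDH, the ratio was 10.9, 12.2 and 7.67 in WT and 11.2, 6.43 and 2.54 in POLDIP2 KO, with overlap between the lines.

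PIPOX and GNMT had few reads, 4 to 17 and 4 to 10 per library. PIPOX (ENSG00000179761, chr17:28950513-29057216), which lies 593 kb from POLDIP2, had 6.61, 11.0 and 4.18 normalised counts in WT and 6.15, 13.8 and 3.97 in POLDIP2 KO. GNMT (ENSG00000124713, chr6:42960754-42963880), which uses S-adenosylmethionine to methylate glycine, had 4.72, 5.02 and 6.26 in WT and 8.61, 3.26 and 9.93 in POLDIP2 KO. Both ranges overlapped, and with means under 10 neither gene entered the fit, so no fold change is given.

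Homocysteine use outside the betaine route was well expressed. MTR (ENSG00000116984, chr1:236795260-236921278), methionine synthase, had 3214, 2507 and 2285 normalised counts in WT and 2686, 2527 and 2286 in POLDIP2 KO, with a log2 fold change of -0.08 ± 0.15 (SE). CBS (ENSG00000160200, chr21:43053191-43076943), cystathionine beta-synthase, had 1420, 1804 and 1227 in WT and 1350, 1196 and 1251 in POLDIP2 KO, with a log2 fold change of -0.21 ± 0.16 (SE). Both genes overlapped between the lines. GRCh38 carries a near-identical copy of CBS that was not analysed here, so reads may be split between the copies and the level of CBS is uncertain. Set against MTR, BHMT2 stood at 0.160, 0.254 and 0.242 of the MTR count in WT and at 0.0669, 0.0435 and 0.0552 in POLDIP2 KO.

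**Figure D1:**
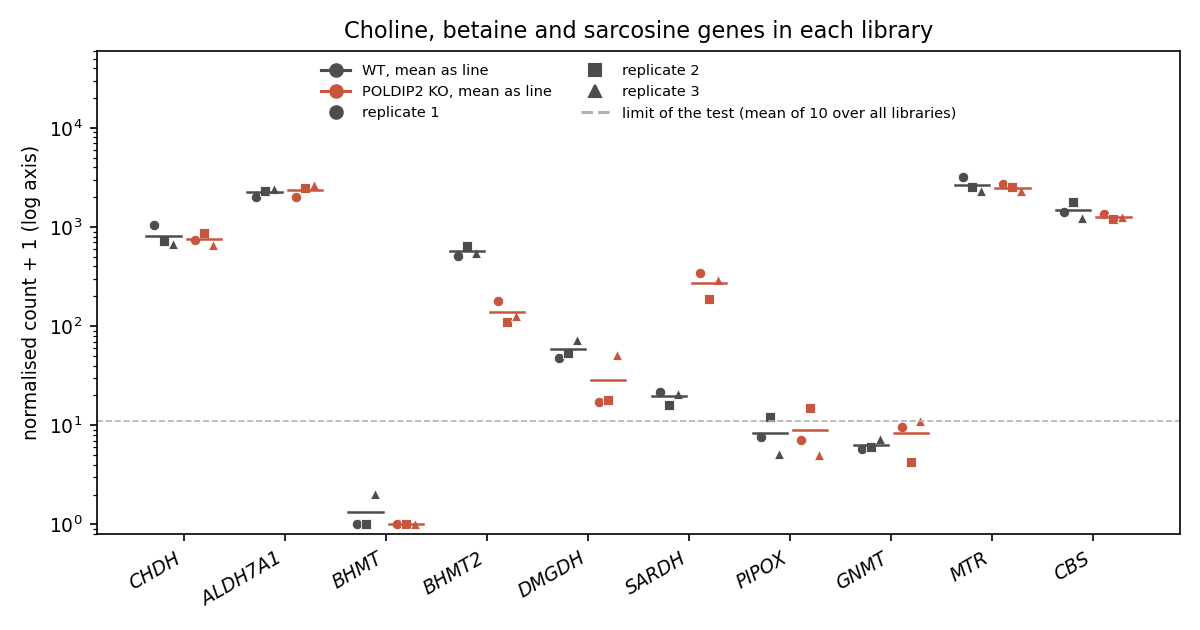
Normalised count + 1 of the 10 genes on a log axis in the 3 WT (grey) and 3 POLDIP2 KO (red) libraries, with symbols for the replicate number, a short line at each mean, and a dashed line at the mean of 10 needed to be tested. SARDH runs from 15.1 to 20.8 in WT and from 186 to 346 in POLDIP2 KO, BHMT2 runs the other way without overlap, and BHMT sits at 0 in 5 of 6 libraries.

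**Figure D2:**
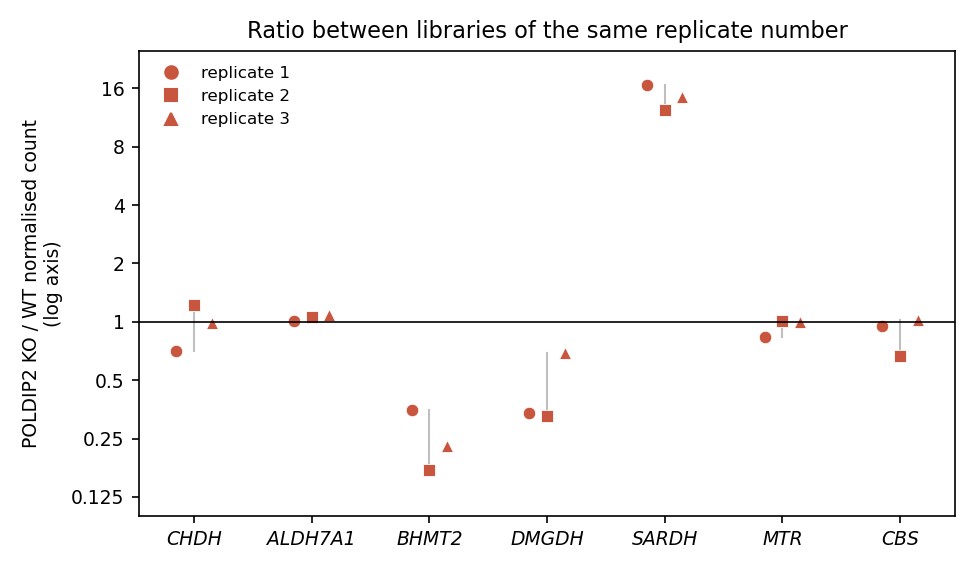
Ratio of the POLDIP2 KO to the WT normalised count on a log axis, for libraries of the same replicate number, in the 7 genes that entered the fit, with a grey line over the range of the 3 ratios and a black line at 1. SARDH lies at 12.4 to 16.6 and BHMT2 at 0.172 to 0.350, DMGDH is below 1 in 3 of 3 pairs, and the other 4 genes lie around 1.

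Of the 10 genes, 7 had a mean normalised count of at least 10 and entered the fit across 14684 genes, and BHMT, GNMT and PIPOX did not. In that limma fit, with an adjusted p under 0.05 and a fold change over 1.5 as thresholds, SARDH was called higher and BHMT2 lower, as were 0.0817% and 0.0885% of all genes tested. With the replicate number as a block, SARDH was called higher and no member lower, against 0.116% and 0.0885% of all genes. DESeq2 on the recovered reads, a test added after seeing the data, called SARDH higher and BHMT2 lower, against 0.756% and 0.933%. The lines did not overlap in SARDH, higher, and BHMT2, lower, and in 5.46% and 5.44% of all genes in these directions. With any 1 library left out, neither gene passed the limma thresholds. As the genes were chosen on this contrast, nothing is read from these counts.

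Per exon length, which allows levels to be compared between genes, the order of the enzymes in WT was CBS, BHMT2, MTR, ALDH7A1, CHDH, DMGDH, GNMT, SARDH, PIPOX and BHMT. The level of CBS was 219 ± 43.3 normalised counts per kb of exon (SD, n = 3), BHMT2 had 152 ± 17.0, and SARDH had 3.63 ± 0.60. The WT ranges of BHMT2, MTR, ALDH7A1 and CHDH overlapped from each one to the next, while all other neighbours in this order did not overlap on this scale. In POLDIP2 KO, SARDH moved up to the fifth place with 53.4 ± 15.8 per kb and BHMT2 down to the sixth with 37.1 ± 9.77, and their ranges overlapped. There, the ranges of ALDH7A1 and MTR, of GNMT and DMGDH, and of DMGDH and PIPOX also overlapped. Among 19441 coding genes, 34.3% had a lower level per kb than SARDH in WT and 50.4% in POLDIP2 KO, and for BHMT2 the share was 63.9% in WT and 47.0% in POLDIP2 KO. With the longest transcript as the length, SARDH went from the seventh to the fifth place and BHMT2 from the fourth to the sixth. On that scale ALDH7A1 came second in WT and first in POLDIP2 KO. In WT the ranges overlapped between CBS and ALDH7A1, MTR and BHMT2, SARDH and GNMT, and GNMT and PIPOX. In POLDIP2 KO they overlapped between ALDH7A1 and CBS, CHDH and SARDH, SARDH and BHMT2, DMGDH and GNMT, and GNMT and PIPOX. The order thus depends on the length used, and SARDH was not distinct there from the genes just above and below it.

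**Figure D3:**
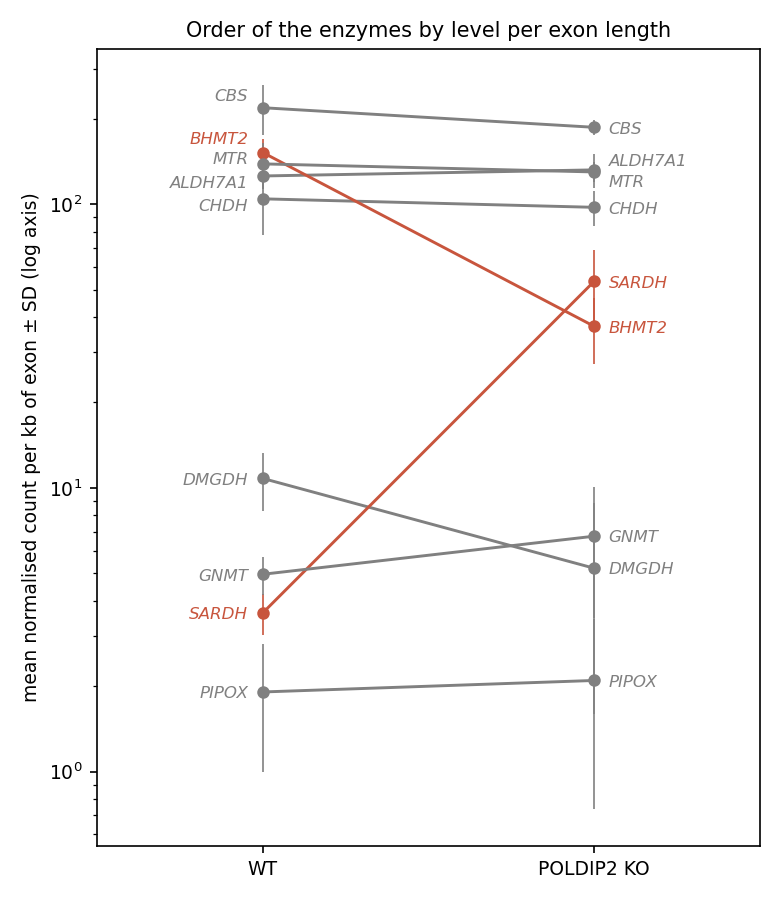
Mean normalised count per kb of exon with SD (n = 3 per line, log axis) in WT and POLDIP2 KO, with a line joining each gene, BHMT at or near 0 left out, and SARDH and BHMT2 in red. SARDH goes from 3.63 to 53.4 and BHMT2 from 152 to 37.1, so their lines cross, while CBS, MTR, ALDH7A1 and CHDH stay within 97.4 to 219.

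The routes connected to these enzymes were examined with 97 genes in 9 lists, of which 87 could be tested. By limma 0 of the 87 passed the thresholds in either direction, with or without the replicate block, and 9 had an unadjusted p under 0.05, of which 3 were higher and 6 lower. This is 10.3% of the list genes, beside 6.48% of all genes tested. DESeq2 called 1 gene higher, ALDH1L2, and 1 lower, CHKA, which is 1.15% of the 87 in each direction, beside 0.756% and 0.933% of all genes. ALDH1L2 had 0 reads in WT and passed the filter on the mean only through POLDIP2 KO, so nothing is read from its call. The lines did not overlap in 3 genes that were higher and 8 that were lower in POLDIP2 KO, which is 3.45% and 9.20% of the 87, beside 5.46% and 5.44% of all genes. All 11 are named below. ALDH1L2 is among the 3 higher genes here and among the 3 higher by unadjusted p. The median log2 fold change over the 87 genes was 0.03, beside -0.00029 over all genes.

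The choline list covers uptake and the making of phosphatidylcholine, the other fate of choline. None of its 12 tested genes passed the limma test, and the median log2 fold change was 0.05. The transporters SLC44A1 and SLC44A2, its most abundant members, had log2 fold changes of 0.10 ± 0.09 and 0.15 ± 0.28 (SE). FLVCR1, another choline transporter, had 920, 972 and 1082 normalised counts in WT and 682, 741 and 914 in POLDIP2 KO, without overlap (log2 fold change -0.36 ± 0.15 (SE), limma adjusted p = 0.765). The kinase that commits choline to this route, CHKA, had 1073, 984 and 823 normalised counts in WT and 688, 623 and 609 in POLDIP2 KO, a log2 fold change of -0.58 ± 0.14 (SE) with an adjusted p of 0.292 by limma and of 0.0316 by DESeq2. PCYT1B, an isoform of the rate-limiting enzyme of this route, had 443, 445 and 350 in WT and 294, 128 and 127 in POLDIP2 KO, a log2 fold change of -1.28 ± 0.35 (SE) with a limma adjusted p of 0.382. The ranges of CHKA and PCYT1B did not overlap between the lines. PCYT1A, the more abundant isoform, had 2838 to 3344 in WT and 2876 to 3419 in POLDIP2 KO.

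Among 6 tested genes of betaine and osmolyte transport, 0 passed the limma test and the median was 0.17. The betaine transporter SLC6A12 had at most 12.0 normalised counts in any library. SLC6A20, a carrier of proline and betaine, had 29.3, 24.1 and 13.6 in WT and 8.61, 10.6 and 7.94 in POLDIP2 KO (log2 fold change -1.16 ± 0.49 (SE), limma adjusted p = 0.765). The most abundant genes of the list were AKR1B1, which makes sorbitol, and the taurine transporter SLC6A6. AKR1B1 had 13227, 38647 and 60511 in WT and 30946, 59682 and 54530 in POLDIP2 KO, and SLC6A6 had 2189, 9656 and 6381 in WT and 2184, 11692 and 10182 in POLDIP2 KO. In both genes the library numbered 1 was the lowest of its line. The inositol transporter SLC5A3 had 4535, 4587 and 5304 in WT and 5322, 6339 and 6915 in POLDIP2 KO, higher without overlap (log2 fold change 0.36 ± 0.13 (SE), limma adjusted p = 0.655).

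SARDH and DMGDH pass electrons to electron transfer flavoprotein and need flavin. None of the 8 tested genes for flavin supply and electron acceptors passed the limma test, the median was 0.05, and all were within -0.07 and 0.13. ETFA, a subunit of that acceptor, and riboflavin kinase RFK were the most abundant, with log2 fold changes of 0.13 ± 0.12 and -0.01 ± 0.17 (SE).

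Glycine is the product of SARDH. Of 13 tested genes of glycine and serine metabolism, 0 passed the limma test, 10 had a log2 fold change below 0 and 3 above, and the median was -0.24. Over all 87 tested list genes, 37 were below 0 and 50 above. PHGDH, the first enzyme of serine synthesis, had 5011, 4809 and 4820 in WT and 4083, 3125 and 3727 in POLDIP2 KO, without overlap (log2 fold change -0.43 ± 0.12 (SE), limma adjusted p = 0.402). SHMT2 and PSAT1, the most abundant by mean, had log2 fold changes of -0.06 ± 0.18 and -0.25 ± 0.19 (SE). SLC25A38, a mitochondrial glycine carrier, also did not overlap, at -0.24 ± 0.11 (SE, limma adjusted p = 0.866).

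The methyl groups taken off by DMGDH and SARDH enter the folate pool. Of 15 tested folate enzymes 0 passed the limma test, with a median of -0.03. TYMS, which makes thymidylate and was among the most abundant of them, had a log2 fold change of -0.07 ± 0.16 (SE). ALDH1L2, the mitochondrial enzyme that oxidises formyl groups on folate to carbon dioxide, had 0 reads in all WT libraries and 36, 12 and 14 reads in POLDIP2 KO. Against a floor of 3 reads in each WT library it was at least 7.57-fold higher in POLDIP2 KO, with an adjusted p of 0.186 by limma and of 0.00448 by DESeq2. Its mean of 11.3 passed the filter of 10 only through the POLDIP2 KO libraries, so nothing is read from these p-values. Its cytosolic counterpart ALDH1L1 had 208, 161 and 90.8 normalised counts in WT and 145, 142 and 81.4 in POLDIP2 KO.

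For the methionine cycle, 0 of 10 tested genes passed the limma test and the median was 0.01. MAT2A, which makes S-adenosylmethionine, had 7285, 8110 and 8662 in WT and 8113, 11075 and 11325 in POLDIP2 KO (log2 fold change 0.33 ± 0.15 (SE), limma adjusted p = 0.839), and AHCYL1 had a log2 fold change of 0.17 ± 0.19 (SE). GAMT, the methyltransferase of creatine synthesis, was at 798, 1067 and 746 in WT and 581, 698 and 697 in POLDIP2 KO, without overlap (log2 fold change -0.39 ± 0.17 (SE), limma adjusted p = 0.818). Among the 6 genes that handle cobalamin, the cofactor of MTR, 0 passed and the median was 0.03. The most abundant of these, MMADHC and CD320, had log2 fold changes of 0.00 ± 0.09 and 0.14 ± 0.15 (SE).

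Beyond CBS, 0 of the 11 tested genes of transsulfuration and cysteine metabolism passed the limma test, and the median was 0.03. CTH, which releases cysteine from the cystathionine that CBS makes, had 347, 866 and 560 normalised counts in WT and 273, 257 and 284 in POLDIP2 KO. All POLDIP2 KO libraries were below the lowest WT library, with a log2 fold change of -1.02 ± 0.32 (SE) and a limma adjusted p of 0.508. SQOR, which oxidises hydrogen sulfide, had 672, 780 and 736 in WT and 850, 977 and 921 in POLDIP2 KO, higher without overlap (log2 fold change 0.33 ± 0.12 (SE), limma adjusted p = 0.677). GCLC and GCLM, the subunits of the first enzyme of glutathione synthesis, were the most abundant and had log2 fold changes of -0.09 ± 0.27 and 0.06 ± 0.49 (SE).

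In lysine and pipecolate breakdown, where ALDH7A1 and PIPOX also act, 0 of 6 tested genes passed the limma test and the median was 0.04. AADAT and DHTKD1, the most abundant, had log2 fold changes of 0.02 ± 0.26 and 0.08 ± 0.11 (SE). AASS, the entry enzyme of the route, had 328, 191 and 0 normalised counts in WT and 572, 224 and 32.8 in POLDIP2 KO, so both libraries numbered 3 were the lowest of their line and the ranges overlapped.

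**Figure D4:**
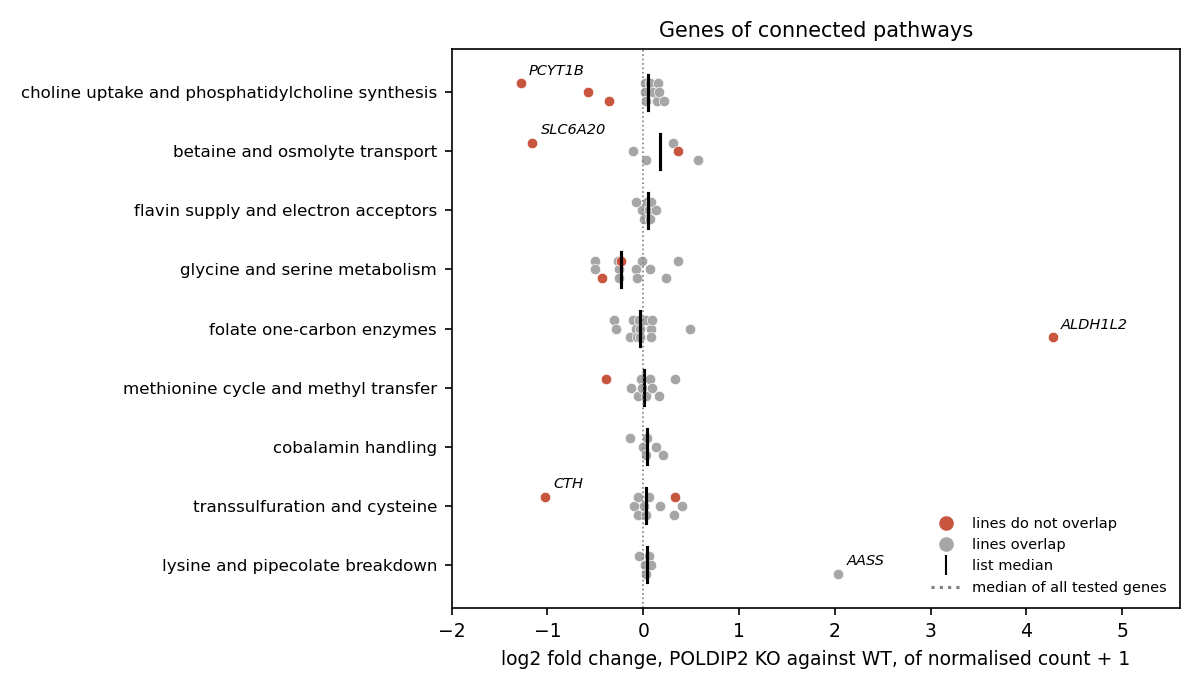
Log2 fold change, POLDIP2 KO against WT, of normalised count + 1 for the 87 tested genes of the 9 lists, with red points where the 3 libraries of the lines do not overlap, a black bar at each list's median and a dotted line at the median of all tested genes. All 9 list medians lie between -0.24 and 0.17, and the genes farthest out are ALDH1L2, AASS, PCYT1B, SLC6A20 and CTH.

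Genes beside SARDH and beside BHMT2 were examined to see whether the differences reached along the chromosome. Of the 5 nearest coding genes on each side of SARDH and of the cluster of DMGDH, BHMT2 and BHMT, 20 in all, 19 were matched in the table and SLC2A6 was not analysed here. Of these, 15 were tested and 0 passed the thresholds by limma, with or without the block, or by DESeq2, and 0 had an unadjusted p under 0.05 by limma. Their median log2 fold change was -0.00, with a range from -0.25 to 0.93. Over all genes tested, limma called 0.0817% higher and 0.0885% lower, or 0.116% and 0.0885% with the block. DESeq2 called 0.756% and 0.933%, and 6.48% had an unadjusted p under 0.05 by limma. At these shares any 15 genes would give few or no calls, so the count of 0 says little about the reach of the differences.

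On the lower side of SARDH, DBH, FAM163B and MYMK had at most 1 read in any library, and ADAMTSL2 had 2.46 to 16.9 normalised counts over the 6 libraries. On the other side, VAV2, whose start lies 253 kb from that of SARDH, had 1898, 1583 and 1888 in WT and 1970, 2050 and 1960 in POLDIP2 KO, which did not overlap (log2 fold change 0.16 ± 0.11 (SE), limma adjusted p = 1.00). BRD3OS, BRD3, WDR5 and RXRA had log2 fold changes of -0.03, 0.05, -0.14 and -0.07, all with overlap. Around BHMT2, the nearest genes ARSB and JMY had log2 fold changes of -0.00 ± 0.13 and -0.21 ± 0.16 (SE), and LHFPL2, SCAMP1, AP3B1, TBCA, HOMER1, TENT2 and MTX3 lay between -0.25 and 0.09. CMYA5, at 5.02 to 9.45 normalised counts in WT and 7.38 to 37.4 in POLDIP2 KO, gave 0.93 ± 0.70 (SE), with 1 high library, POLDIP2 KO replicate 2.

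The tested genes with the pattern most like that of SARDH over the 6 libraries, by the root-mean-square difference of centred log2(normalised count + 1), were GBP2, ALDH1L2, ADGRG5, CXCL1 and CTSS, at 0.39, 0.51, 0.62, 0.68 and 0.70. GBP2, an interferon-induced GTPase, had 28.3, 9.03 and 15.7 normalised counts in WT and 442, 217 and 291 in POLDIP2 KO. The chemokine CXCL1 had 4.72, 1.00 and 1.04 in WT and 105, 56.2 and 34.8 in POLDIP2 KO, and the lysosomal protease CTSS had 0 in all WT libraries and 44.3, 28.5 and 30.8 in POLDIP2 KO. Like SARDH, these genes were low in WT. ALDH1L2, ADGRG5, CXCL1 and CTSS had WT means under 10 and passed the filter on the mean only through POLDIP2 KO. Their low level in WT follows from this and from the match to SARDH, so nothing is read from it. Markers of leukocytes and endothelium had a summed level of 2.83, 6.02 and 6.26 in WT and 12.3, 17.1 and 12.9 in POLDIP2 KO. Of these 6 markers AIF1 and CD3E were at 0 in all libraries, PECAM1 was the most abundant with at most 9 reads, and PTPRC had 0 reads in WT and 1, 4 and 7 in POLDIP2 KO. CD14 had 0, 3 and 2 reads in WT and 3, 8 and 3 in POLDIP2 KO. CDH5 went the other way, with 1 read in WT replicate 1 and 0 in the other libraries. PECAM1 and CD14 overlapped between the lines, and all 6 markers were near or below the floor. The part of these markers in the result was not tested.

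For BHMT2 the nearest patterns were those of SPNS2, ISYNA1, ZNF844, POLDIP2 and ARMCX2, at 0.23, 0.25, 0.26, 0.28 and 0.30. SPNS2, an exporter of sphingosine-1-phosphate, had 15505, 19645 and 12936 in WT and 5219, 4407 and 4388 in POLDIP2 KO. ISYNA1 is an enzyme on the route from glucose 6-phosphate to the osmolyte inositol. It had 1059, 1451 and 1093 in WT and 501, 337 and 368 in POLDIP2 KO. BHMT2 thus stood at 0.244 of its WT mean and POLDIP2, the targeted gene, at 0.255. The measure uses the same libraries that chose SARDH and BHMT2, so it describes likeness over these 6 libraries and no more.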

How the data were processed

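Polyadenylated RNA was sequenced as stranded single-end libraries. Per the labels and the study's methods, the authors quantified reads with Salmon 1.8 on GRCh38, summed them to genes with tximport and divided them by DESeq2 1.34.0 size factors, and deposited these normalised counts, a signal per gene. The annotation release is not given in the sources used here, nor whether strand was used in counting. Every column belonged to a sample, and 0 went unused. Division by the step of 1 read gave whole reads for 100% of values within 0.001. The step lies near 1 in WT replicate 2 and in POLDIP2 KO replicate 3, where this check is weak.

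GENCODE 44 gave symbols to 34152 genes, positions and exon lengths. log2(normalised count + 1) of the 14684 genes with a mean of at least 10 was fitted with limma 3.58.1 in R 4.3.3 (eBayes with trend, prior degrees of freedom 3.02), with Benjamini-Hochberg adjustment and thresholds of 0.05 and 1.5-fold. Adding 1 understates the fold change of low genes. An exact permutation test of 3 against 3 libraries cannot go below 0.1, so p-values rest on variance shared between genes and cover the spread among these cultures. Deviations from the mean of each line had correlations of 0.315, 0.137 and 0.129 between same-numbered libraries, against -0.259 to 0.147 for other combinations. The highest of these others, WT replicate 3 with POLDIP2 KO replicate 2, was above the same-numbered values for 2 and 3. Only the libraries numbered 1 thus stood out as deviating together. The replicate number was used as a block in an alternative. edgeR 4.0.16 and DESeq2 1.42.0 on recovered reads were added after seeing the data. The fits were tested on simulated data. Summaries used numpy 2.4.6 and pandas 2.3.3, and figures matplotlib 3.10.9, under Python 3.11.15.

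The 10 genes and all lists were chosen with earlier results of these data known. Named besides the 10 and POLDIP2 were, in each list, genes past both thresholds, genes whose lines do not overlap with over 1.5-fold difference, and the 2 with the highest mean, all neighbours, and the 5 patterns nearest to SARDH and to BHMT2. In the folate list, 1 gene that this rule names enters the counts but is not reported here. CHKA, PHGDH, FLVCR1, SLC5A3, SLC25A38, GAMT, SQOR, PCYT1A, SLC6A12, ALDH1L1 and AASS were named after their values were seen. Promoters came from RefSeq. Protein sequences and the second copy of CBS were not used here.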

Additional observations from a re-analysis of the deposited data

How the results depend on the processing

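The 12 genes called higher and 13 called lower by limma became 17 and 13 with the replicate block. A mean of at least 50 left 6 lower, and edgeR on recovered reads 8 lower. DESeq2 on recovered reads gave 111 higher and 137 lower, of which 1 and 1 were in the pathway lists, and DESeq2 with the replicate block gave 184 higher and 208 lower, of which 1 and 2 were in the lists. Without the block, the 1 higher list gene was ALDH1L2, which passed the filter on the mean only through POLDIP2 KO. Leaving out 1 library gave 0 to 3 higher and 0 to 2 lower. Without WT replicate 2 or 3, or POLDIP2 KO replicate 2 or 3, limma left 0 calls, with 865, 905, 870 and 701 genes at an unadjusted p under 0.05. The cause was not tested. The replicate block changed the errors and not the fold changes of the 7 genes of the 10 that were fitted.

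With all libraries kept, the log2 fold change of SARDH ranged from 3.53 to 3.88 over 12 alternatives, that of BHMT2 from -2.06 to -2.02, and, over 11, that of DMGDH from -1.22 to -1.05. Leaving out 1 library gave 3.59 to 4.03, -2.25 to -1.90 and -1.71 to -0.92, and SARDH and BHMT2 then missed the adjusted p threshold of 0.05 for each of the 6 libraries. CHDH, ALDH7A1 and MTR changed sign without WT replicate 1 (0.12, -0.02 and 0.06), and CHDH and ALDH7A1 also without POLDIP2 KO replicate 3 (0.013 and -0.013). Neighbour genes stayed at 0 calls in every alternative. BHMT2 was not called with the replicate block or with eBayes without trend. SARDH and BHMT2 were chosen on this contrast, so nothing is read from whether they passed or missed a threshold here. Adding a second CBS copy to CBS was not run. BHMT was below the floor of 3 reads, and GNMT and PIPOX had 4 to 17 reads per library, and the mean normalised count of each was under the 10 needed for the fit.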
